A study of Ovis aries with 7 samples.

Results

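The 10 genes described here carry glucose into the cell, split it and decide what becomes of its pyruvate, and their RNA was measured in sheep embryos made by in vitro fertilization (IVF). They were chosen by name from a list of glucose transport, glycolysis and pyruvate genes, with earlier results of these data known. The genes were SLC2A1, SLC2A3, HK1, HK2, PFKP, PKM, LDHA, LDHB, PDK1 and PDHA1. All 10 were found among the 31304 rows of the expression table. The study profiled 8-cell embryos of sheep (Ovis aries), a stage before any lineage has formed, by Smart-seq2, an amplified full-length RNA-seq method for small samples of polyA RNA. Its labels name 3 IVF libraries and 4 libraries from somatic cell nuclear transfer (SCNT), in which the egg receives the nucleus of a body cell, and its title asks how evenly such embryos are reprogrammed. Breed, sperm and oocyte source, culture and embryos per library are unknown here, so the spread between replicates, which nothing ties to separate cultures, may be partly technical. The SCNT group is not analysed here, since 4 columns of the table have names that match no sample label, and no value or difference for it is given. Every value below is therefore from IVF replicates 1, 2 and 3, given in that order, in TPM, a transcript level scaled by gene length and library total. Means are ± SD with n = 3. Sequencing depth is unknown, since TPM keeps none.

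Glucose enters cells through facilitative transporters of the SLC2A family and is trapped by hexokinase. Phosphofructokinase commits it to glycolysis, pyruvate kinase yields pyruvate, and lactate dehydrogenase interconverts pyruvate and lactate. The pyruvate dehydrogenase complex, switched off by its kinases, starts the oxidation of pyruvate inside the mitochondrion. Most steps are served by several paralogs that differ in tissue and kinetics. Cleavage-stage mammalian embryos are known to live mainly on pyruvate and lactate and to raise their glucose use around compaction and blastocyst formation. RNA levels are not fluxes, and an 8-cell embryo holds stored maternal RNA beside its own, which these libraries cannot separate.

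The libraries held 11090, 12246 and 10973 rows at 1 TPM or more. Of 12 oocyte and early embryo markers, 11 reached 1 TPM in every library, and their summed level was 2782, 4060 and 2427 TPM. Other cell types were low: summed levels were 12.0, 18.5 and 9.72 TPM for 9 cumulus and granulosa markers, 13.9, 23.3 and 21.2 for 10 fibroblast markers, 3.89, 6.91 and 5.21 for 8 sperm markers, and 4.74, 3.82 and 2.10 for 5 blood markers. FOXL2 and PTX3 of the cumulus list, PRM1, AKAP4 and SMCP of the sperm list and HBB of the blood list were listed at 0 in all 3 libraries. Others were present: HAS2, at 9.86, 13.1 and 7.09 TPM, made up most of the cumulus sum. Of the fibroblast list, VIM was at 6.48, 8.84 and 8.37, S100A4 at 2.54, 4.06 and 5.73, and PDGFRA at 1.11, 3.97 and 2.52. PRM2 was at 2.11, 0.925 and 0.729, TNP2 at 0.981, 2.72 and 2.54, and the T cell gene CD3E at 1.16, 1.45 and 1.82. At least 1 TPM in all libraries was reached by 1, 3, 0 and 1 members of those lists in the same order. Of all rows with a gene symbol, 49.0% did so. Replicate 2 had the highest sums of the embryo, cumulus, fibroblast and sperm lists, and its part in the results below was not tested.

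The 10 genes spanned the whole range from abundant to barely detected. LDHA, PKM and SLC2A3 stood at the top, with means of 354 ± 207, 284 ± 85.3 and 281 ± 134 TPM. LDHB (88.6 ± 16.6), HK2 (57.4 ± 27.0), PDHA1 (30.6 ± 4.02) and HK1 (13.9 ± 1.89) followed, and SLC2A1 (2.16 ± 0.418), PDK1 (2.04 ± 0.749) and PFKP (0.253 ± 0.356) lay lowest. At 1 TPM or more in all 3 libraries were 9 of the 10, all but PFKP, against 49.0% of 16526 rows with a gene symbol. Of the 110 genes of the pathway lists in the table, members included, 58 were at that level. The median of the 10 means was 44.0 TPM, beside 1.58 TPM for all rows with a symbol. The genes were chosen with earlier results of these data known, so neither contrast with all rows is a test of them. In this order the first 3 genes could not be ranked: the log2(TPM + 1) difference between LDHA and PKM was 0.19 ± 1.33, and that between PKM and SLC2A3 0.08 ± 0.33, each smaller than its SD. SLC2A1 and PDK1 likewise differed by 0.08 ± 0.19. The other 6 neighbouring pairs kept their order in 3 of 3 libraries by more than the SD, though by a narrow margin for HK2 over PDHA1 (0.79 ± 0.74). The order itself came from the means of these same libraries, so this describes it and is no separate check.

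**Figure D1:**
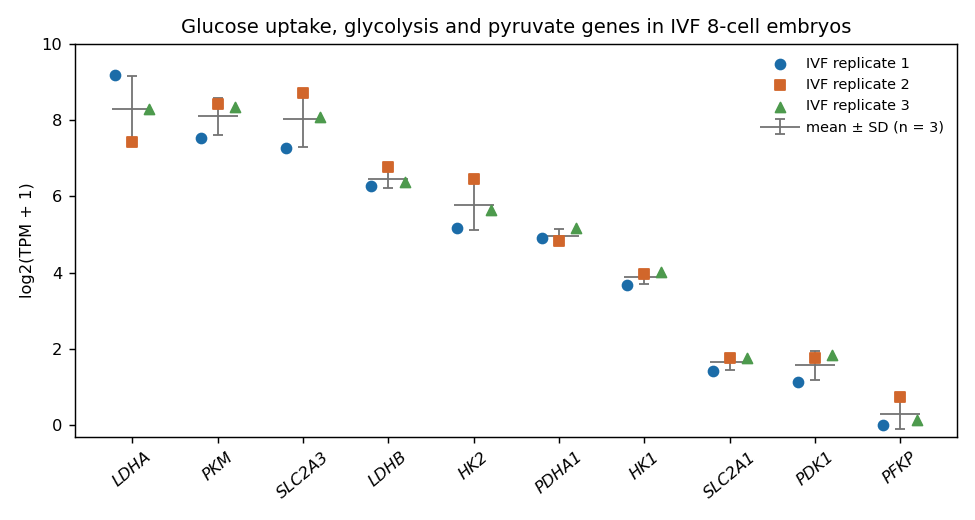
Level of each gene as log2(TPM + 1) on the vertical axis, with 1 point per IVF library and the mean ± SD of the log values (n = 3), genes ordered by mean TPM. LDHA, PKM and SLC2A3 overlap at the top and PFKP lies near 0.

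Glucose transport RNA was nearly all SLC2A3. SLC2A3, which encodes the high-affinity transporter known from neurons and placenta, was at 153, 419 and 272 TPM, lowest in replicate 1 and highest in replicate 2. SLC2A1, the transporter of red cells and many proliferating cells, was at 1.68, 2.42 and 2.37 TPM, so the ranges of the transporters did not overlap. SLC2A3 was 91.1, 173 and 115 times SLC2A1 within the libraries, a log2(TPM + 1) difference of 6.37 on average. Of the TPM summed over 12 SLC2A genes, SLC2A3 took 97.0, 97.3 and 97.4% and SLC2A1 1.07, 0.562 and 0.850%. A share near the whole sum leaves little room to vary. The next transporters by mean level were SLC2A8 (0.361, 2.94 and 1.74 TPM), a transporter of internal membranes, the fructose carrier SLC2A5 (0.435, 3.47 and 0.290) and the inositol carrier SLC2A13 (0.597, 1.33 and 1.27). Of 14 transporters in the list, which adds the sodium-coupled SLC5A1 and SLC5A2, only SLC2A1 and SLC2A3 had 1 TPM or more in every library. The share of all rows with a gene symbol at that level was 49.0%. A lncRNA that overlaps SLC2A1 in the gene table was below 1 TPM in each library, at 0.411, 0.854 and 0.151.

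Hexokinase RNA was mostly HK2. HK2, the inducible enzyme of muscle and of fast-growing cells, was at 35.2, 87.5 and 49.5 TPM, highest in replicate 2. HK1, the constitutive enzyme of most tissues, was at 11.7, 14.5 and 15.3 TPM, and its values did not overlap with those of HK2. HK2 was 3.00, 6.01 and 3.23 times HK1, and HK1 minus HK2 was -1.88 ± 0.55 on the log2(TPM + 1) scale, with HK1 lower in 3 of 3 libraries. HK2 made up 75.8 ± 5.64% and HK1 20.1 ± 5.62% of the TPM of 5 hexokinase genes. HKDC1, a further hexokinase, was at 2.53, 3.61 and 1.82 TPM. HK3 was listed at 0 in replicates 1 and 3 and was at 0.447 TPM in replicate 2. A protein-coding row without a symbol, which overlaps 0.999% of the span of HK2 in the gene table, was at 5.66, 13.5 and 9.23 TPM. It is high and low in the same libraries as HK2, and whether reads were shared between them was not tested.

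Phosphofructokinase was low in all its forms. PFKP, the platelet-type subunit, was listed at 0 in replicate 1 and was at 0.660 and 0.0988 TPM in replicates 2 and 3, so it reached 1 TPM in no library. Its mean rested on replicate 2, without which it was 0.0494 TPM. The liver-type PFKL was at 0.996, 0.748 and 1.21 TPM and the muscle-type PFKM at 0.175, 1.29 and 0.721 TPM. PFKP minus PFKL was -0.69 ± 0.54 and PFKP minus PFKM -0.45 ± 0.21 on the log2(TPM + 1) scale, PFKP being lower in 3 of 3 libraries each time. At such levels the pseudocount sets the size of these differences, which were -2.11 and -1.46 with a pseudocount of 0.1. The 3 genes summed to 1.17, 2.70 and 2.03 TPM, with PFKL taking 85.1, 27.7 and 59.6% of it and PFKP 0, 24.5 and 4.87%, so no form led in every library. Among enzymes that tune phosphofructokinase through its sugar bisphosphate activator, TIGAR, which breaks the activator down, was at 32.7, 20.5 and 32.4 TPM. PFKFB4 and PFKFB2, which make and break it, were at 2.54, 3.87 and 4.37 and at 1.59, 1.01 and 2.11 TPM.

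**Figure D2:**
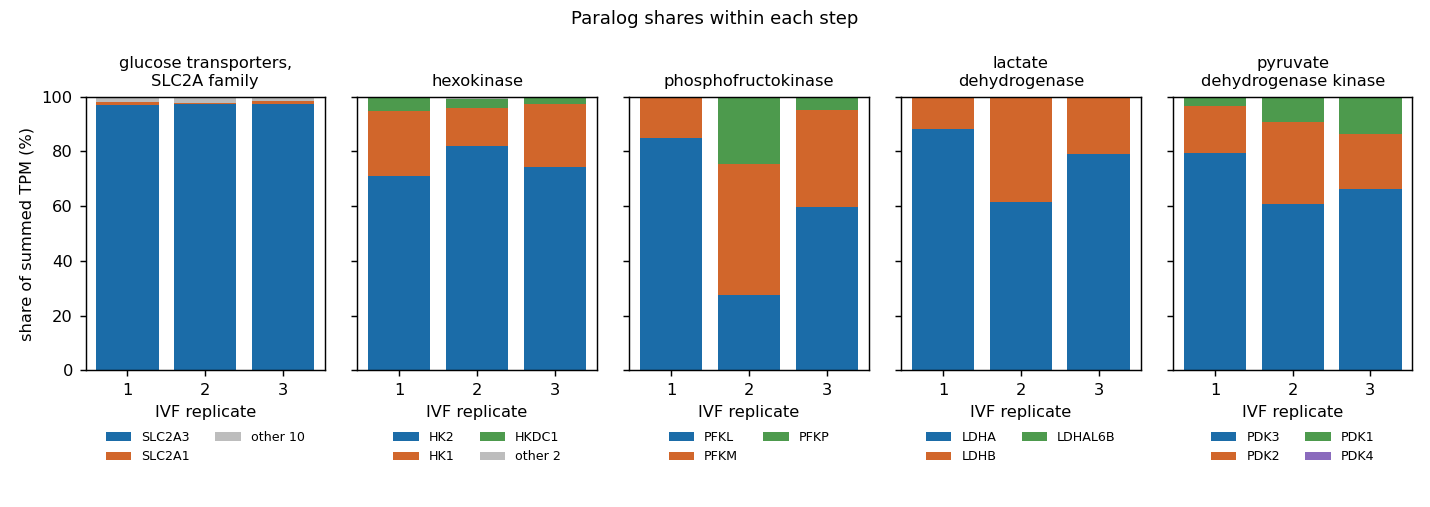
Share of each paralog in the summed TPM of its step (%), with 1 bar per IVF library. SLC2A3 takes 97.0 to 97.4% of the transporters and HK2 71.2 to 82.1% of hexokinase, while LDHA ranges from 61.4 to 88.3% of lactate dehydrogenase and the order of phosphofructokinase genes changes between libraries.

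Set beside the other steps from glucose entry to lactate, phosphofructokinase had the lowest summed level, a comparison chosen after the values were seen. The mean sums were 289 ± 137 TPM for SLC2A transporters, 74.2 ± 29.3 for hexokinase, 14.9 ± 3.70 for GPI, which isomerizes glucose phosphate, and 1.97 ± 0.767 for phosphofructokinase. Aldolase, the next enzyme, summed to 378 ± 85.8 TPM, and the triose phosphate isomerase TPI1 to 3.39 ± 0.858. Hexokinase RNA was 42.3, 39.4 and 32.8 times phosphofructokinase RNA in the 3 libraries. TPI1 was at 4.28, 3.32 and 2.57 TPM, above the phosphofructokinase sum in each library. The later steps of glycolysis were higher than either, with sums of 51.6 ± 2.78 for glyceraldehyde phosphate dehydrogenase, 137 ± 72.9 for phosphoglycerate kinase, 22.2 ± 8.07 for phosphoglycerate mutase and 53.3 ± 13.9 for enolase. The most abundant genes of these shared steps other than PKM were the aldolase ALDOA (407, 223 and 293 TPM), the kinase PGK1 (93.0, 221 and 96.6) and BPGM (48.6, 50.7 and 69.6), which makes bisphosphoglycerate. At least 1 TPM in every library was found for 49.0% of rows with a gene symbol. Of 18 genes in the list of shared steps, PKM included, 11 reached it. Several of these genes are known to have processed pseudogenes. How reads with several matches were counted is unknown here, and many rows carry only a LOC identifier, so a low value may miss reads assigned to copies.

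**Figure D3:**
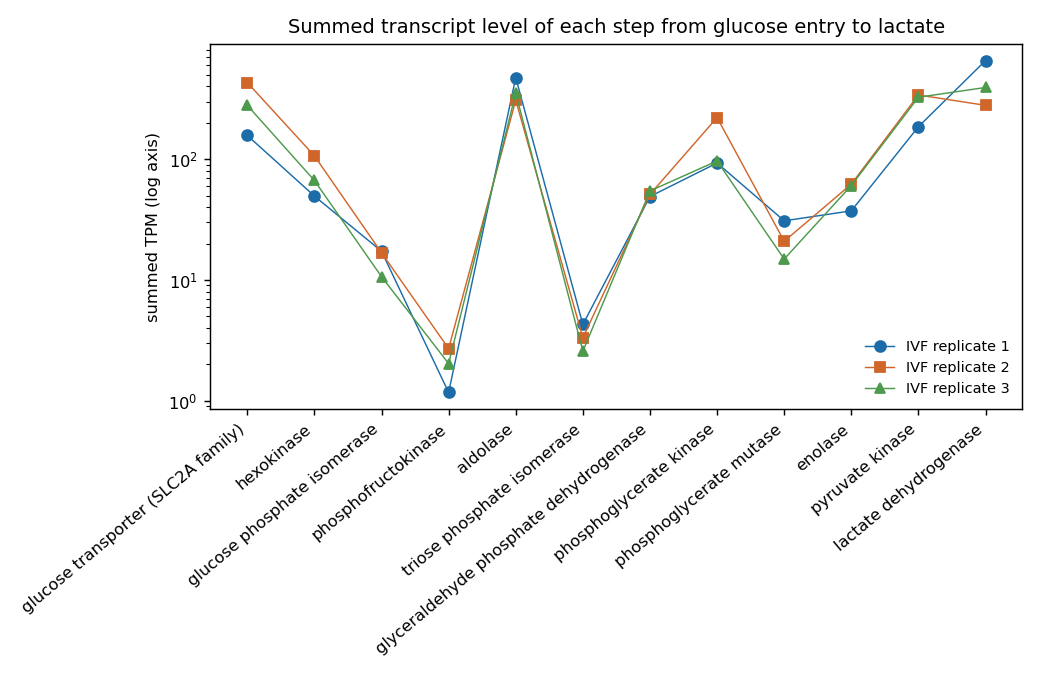
Summed TPM (log axis) of the genes of each step from transport to lactate dehydrogenase, with 1 line per IVF library. Phosphofructokinase, at 1.17 to 2.70 TPM, and triose phosphate isomerase, at 2.57 to 4.28 TPM, are the lowest points in each library.

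Pyruvate kinase RNA came from PKM. PKM, the gene of the form found in most tissues and in embryos, was at 186, 340 and 326 TPM, lower in replicate 1 than in the others. PKLR, the liver and red cell gene, was listed at 0 in replicates 1 and 3 and was at 0.166 TPM in replicate 2. PKM made up 100, 99.95 and 100% of their summed TPM, and exceeded PKLR by 8.03 ± 0.43 on the log2(TPM + 1) scale. Values per gene do not separate the splice forms of PKM.

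Lactate dehydrogenase RNA was mostly LDHA, by a margin that varied among libraries. LDHA, the subunit that favours the reduction of pyruvate to lactate, was at 579, 171 and 311 TPM, highest in replicate 1 and lowest in replicate 2, the largest relative spread of the 9 genes that reached 1 TPM throughout (SD 58.5% of the mean). LDHB, the heart-type subunit that favours lactate oxidation, was at 76.5, 108 and 81.9 TPM, and all its values lay below those of LDHA. LDHA was 7.57, 1.59 and 3.79 times LDHB, and its share of the step was 88.3, 61.4 and 79.1%. The log2(TPM + 1) difference of LDHA minus LDHB was 2.90, 0.67 and 1.91, positive in 3 of 3 libraries, with a mean of 1.83 ± 1.12 (1.29 without replicate 1 and 2.41 without replicate 2). The testis-type LDHAL6B had a mean of 0.124 TPM. Among carriers that move lactate and pyruvate across the cell membrane, SLC16A1 was at 69.0, 76.9 and 76.4 TPM and its chaperone BSG at 49.1, 33.1 and 34.1, whereas SLC16A3, the exporter typical of glycolytic cells, and the chaperone EMB were listed at 0 in all libraries. Of the 10 genes of this list in the table, 4 had at least 1 TPM throughout, against 49.0% of rows with a gene symbol.

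In TPM, the catalytic alpha and beta subunits of pyruvate dehydrogenase varied little among libraries, and its other subunits more. PDHA1, the X-linked catalytic alpha subunit of pyruvate dehydrogenase, was at 29.3, 27.4 and 35.1 TPM, with the smallest relative spread in TPM of the 10 genes (SD 13.2% of the mean). When libraries were scaled by the median of ratios in place of the TPM total, PDHA1 varied more than LDHB. PDHA1 then differed from the mean of the other libraries by log2 values of 0.04, -0.56 and 0.52. LDHB did so by -0.17, 0.09 and 0.08. The testis-type copy of PDHA1, PDHA2, was listed at 0 in all libraries, so no ratio is given. PDHB, the beta subunit that pairs with PDHA1, was at 116, 103 and 129 TPM, which is 3.97, 3.74 and 3.67 times PDHA1. PDHA1 minus PDHB was -1.89 ± 0.06 on the log2(TPM + 1) scale, the least variable of the 11 gene pairs compared. MAP3K15, which overlaps 26.8% of the span of PDHA1 in the gene table, was low, at 1.06, 0.502 and 0.517 TPM. MPC1, a subunit of the mitochondrial pyruvate carrier, was at 289, 87.6 and 168 TPM, and DLD, a subunit that pyruvate dehydrogenase shares with other complexes, at 168, 233 and 136. The core subunit DLAT was at 16.0, 14.9 and 9.37 TPM and the linker PDHX at 27.7, 15.3 and 17.2. Of 9 genes for pyruvate import and oxidation, 8 had 1 TPM or more in all libraries, PDHA2 being the exception. Among all rows with a gene symbol, 49.0% reached that level.

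PDK1 was not the leading kinase of pyruvate dehydrogenase. PDK1, a kinase known to be induced by hypoxia, was at 1.18, 2.38 and 2.55 TPM. PDK3 was at 28.4, 15.9 and 12.4 TPM and PDK2 at 6.09, 7.89 and 3.72, each above PDK1 in 3 of 3 libraries, and PDK4, the starvation-induced kinase, was at 0.0459, 0.0476 and 0.0115. PDK1 minus PDK3 was -2.67 ± 0.96, PDK1 minus PDK2 -1.17 ± 0.67 and PDK1 minus PDK4 1.52 ± 0.40 on the log2(TPM + 1) scale. PDK1 held 3.30, 9.09 and 13.6% of the TPM of the 4 kinases and PDK3 79.5, 60.7 and 66.4%. The phosphatases that reverse the kinases were higher than each kinase in every library, with PDP2 at 34.0, 106 and 63.3 TPM and PDP1 at 34.4, 40.7 and 23.1. For each of the 11 pairs in this account the sign was the same in 3 of 3 libraries, and an exact two-sided sign-flip permutation test gave p = 0.25, the smallest that 3 libraries allow, so none can pass a threshold of 0.05.

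The libraries differed most in LDHA, SLC2A3 and HK2. Of the 7 genes averaging 5 TPM or more, LDHA was at least 2-fold above the mean of the other libraries in replicate 1 (log2 difference 1.32) and at least 2-fold below it in replicate 2 (-1.30). SLC2A3 was 2-fold or more below in replicate 1 (-1.14) and above in replicate 2 (1.04), and HK2 above in replicate 2 (1.05). So 1 of 7 was above and 1 of 7 below in replicate 1, where 5.65% and 7.71% of all 6978 rows at that level were. In replicate 2 it was 2 of 7 above and 1 of 7 below, against 12.8% and 3.85%, and in replicate 3 it was 0 of 7 each way, against 0.817% and 2.62%. The median of these rows was itself 0.19 higher in replicate 2. When libraries were scaled by the median of ratios in place of the TPM total, SLC2A3 and HK2 were 0.69 and 0.70 above in replicate 2, no longer 2-fold, while LDHA stood at -1.65. In replicates 1 and 2 LDHA thus lay on the opposite side from SLC2A3 and HK2, also under that scaling. Other pseudocounts cannot change these sides, since each gene had its highest and lowest values in these replicates. These values describe 3 libraries, with no test. Among the 48 genes of the pathway lists at that level, members included, 3 were at least 2-fold above and 3 below in replicate 1, 5 above and 3 below in replicate 2, and 0 above and 2 below in replicate 3, to be read against the same shares of all rows. Beside the members, LIN28A and MPC1 were above and MYCN and PDP2 below in replicate 1. MYCN, PDP2 and PGK1 were above and MPC1 and PGLS below in replicate 2, and PRKAA1 and VHL below in replicate 3.

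**Figure D4:**
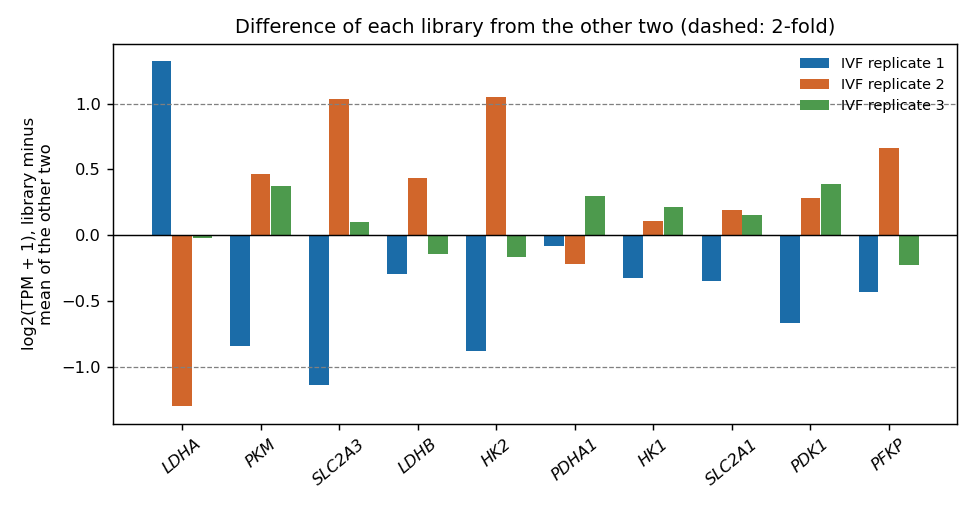
Difference on the log2(TPM + 1) scale between each IVF library and the mean of the other libraries, for each gene, with dashed lines at 2-fold. LDHA bars point up in replicate 1 and down in replicate 2, and SLC2A3 and HK2 bars the other way.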

How the data were processed

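PolyA RNA was amplified for 20 PCR cycles and read as pairs of 150 nucleotides, per the labels' protocols. The authors deposited TPM per gene, each column used summing to 1000000. They used fastp 0.23.4 and HISAT2 2.2.1, per the submitters' processing notes, which name mouse and pig builds. Sheep build, annotation and counter: not given in the sources used here. No coordinates are printed. Columns were assigned by name: 3 match IVF samples. Another 4 hold per-sample values under names that no label uses, and were not used, so the planned comparison of SCNT with IVF by limma was not made. Of 31304 row names, 28875 had an entry in the gene table of ARS-UI_Ramb_v3.0, which also gave overlapping genes. Differences are on log2(TPM + 1), where ratios of low genes come out too small. The rule for names took the 10 genes, their paralog partners and up to 3 further abundant genes per pathway list. Sums per step, and genes named only for them or as listed at 0, were chosen after the values were seen. Members and lists were chosen with earlier results of these data known. Sensitivity to pseudocount, threshold, scaling and each library was computed. The steps for differences, deviations, scaling and the sign-flip test were run on simulated data with low noise and large planted shifts. Shares and sums per step were not covered by it. Python 3.11.15, numpy 2.4.6, pandas 2.3.3 and matplotlib 3.10.9 were used.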

Additional observations from a re-analysis of the deposited data

How the results depend on the processing

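No paired analysis was possible because only 1 group, IVF, has values here. Alternatives for SCNT against IVF were not run. Of 83 values under other settings, 65 moved by less than the SD between libraries (counts by at most 1.5 times) and 18 moved further. A change of sign was not possible, since levels and counts are never negative. For the pairs, a pseudocount keeps the order of genes within a library, and that order was the same in every library. Without mitochondrial and ribosomal protein rows, which raises every gene, means became 2.61 TPM for SLC2A1, 16.8 for HK1, 107 for LDHB and 37.0 for PDHA1. With a pseudocount of 0.1, log2 differences became -2.11 (PFKP minus PFKL), -1.46 (PFKP minus PFKM), 10.95 (PKM minus PKLR), 3.93 (PDK1 minus PDK4) and 8.25 (PDHA1 minus PDHA2, 4.97 with 1). With 5 they became 5.21 (SLC2A3 minus SLC2A1), -0.12 (PFKP minus PFKM), 5.79 (PKM minus PKLR), 0.48 (PDK1 minus PDK4), 2.83 (PDHA1 minus PDHA2) and -1.76 (PDHA1 minus PDHB), as a pseudocount weighs most on low genes. Median-of-ratios scaling divides replicate 2 by 1.19. Under it, 1 of the 7 genes averaging 5 TPM or more stayed at least 2-fold apart in replicate 2, against 3 without it. Leaving out each library moved no mean or difference by its SD. With n = 3 no such shift can reach the SD, so this says nothing about robustness. PFKP, however, ranged from 0.0494 to 0.380 TPM, and its share of phosphofructokinase, 9.77%, was 2.43% without replicate 2. Depth is unknown, so values near 0 cannot be told from sampling loss.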

Other observations

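In the pentose phosphate pathway, which makes NADPH and ribose, 8 of 9 genes had at least 1 TPM in all 3 IVF libraries, beside 49.0% of all rows with a gene symbol. The non-oxidative enzymes TALDO1, RPIA and TKT led at 74.7, 62.8 and 90.0 TPM, at 92.8, 48.7 and 72.6, and at 76.5, 59.7 and 73.2 in replicates 1, 2 and 3. For gluconeogenesis and glycogen, 3 of 16 genes reached 1 TPM throughout, UGP2, PGM1 and GBE1, at 15.8 ± 3.23, 7.11 ± 1.34 and 2.25 ± 0.334 TPM. Another 5 genes, FBP1, FBP2, PCK1, G6PC2 and GYS2, were listed at 0 in all libraries.

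Of 14 genes known to regulate glycolytic genes, 11 had at least 1 TPM in all libraries, beside 49.0% of rows with a gene symbol. The hypoxia-inducible factor genes EPAS1 and HIF1A were at 95.7, 57.9 and 55.8 TPM and at 49.9, 39.8 and 34.6 TPM, both highest in replicate 1. MYCN was at 11.3, 49.4 and 15.7 TPM, highest in replicate 2. TXNIP, which restrains glucose uptake, was at 0.180, 0.207 and 0.0299 TPM, and was picked out after its value was seen.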
